A study of Mus musculus with 11 samples.

Results

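Sufu-mutant clones of the mouse medulloblastoma line SMB21 were compared with the untreated parental line. The members were chosen by the sample labels: clones R13 and R1, each labelled Sufu mutant, and 3 libraries of untreated parental cells, which makes 5 of the 11 libraries of the study. SMB21 carries a Ptch mutant background (strain background Ptch1tm1Mps/J, age given as adult), so the parental controls share the Ptch lesion with both clones. All cells grew as neurospheres, and every RNA was sequenced as a stranded mRNA library on 1 run. The clones came from a transposon screen for drug resistance, each is 1 clone with 1 library, and the labels do not say whether they were kept in the drug. The other groups are 2 parental libraries given sonidegib for 24 h, not compared here, and 4 libraries of Ofd1-mutant clones (R14 with 2 libraries, R16 and R25).

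Hedgehog signalling runs from the receptor Ptch1, which holds the transducer Smo in check, to the Gli transcription factors. Sufu binds Gli proteins in the cytoplasm and at the cilium and restrains their activity, so it acts below Smo in the pathway. In granule cell progenitors of the cerebellum the pathway drives proliferation, and tumours with Ptch1 loss arise from these cells. Ptch1, Hhip and Gli1 are themselves transcribed in response to Gli.

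The 5 libraries held 24308451 to 38241595 counts assigned to genes. Levels are given as CPM (counts per 1000000 counts of a library, with library sizes scaled by TMM), with libraries in the order parental 1, 2 and 3, then R13 and R1. Of 13854 genes tested, edgeR's quasi-likelihood test called 0 at an adjusted p under 0.05 (percent called 0), with 1341 at an unadjusted p under 0.05 and a lowest adjusted p of 0.0522. DESeq2 on the same libraries called 326 of 13529 genes with an adjusted p, 2.41%, of which 144 were higher and 182 lower in the clones. Across the 10879 genes that averaged 5 CPM or more, the SD of the log2 difference was 0.22 between parental 1 and 2 but 0.542 and 0.548 between parental 3 and each of them. It was 0.555 to 0.654 between a clone and a parental library and 0.627 between the clones, so parental 3 stood nearly as far from the other parental libraries as R13 did. Below, a gene is described by whether both clones lay outside the range of the 3 parental libraries. Both clones lay above it for 1773 of the 13854 genes, 12.8%, and below it for 1915, 13.8%. The labels call the parental libraries biological replicates, but nothing says whether they were separate cultures, and p-values measure only the spread between these samples. In bulk RNA, fewer cells of a type and less RNA per cell cannot be told apart.

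Sufu was lower in both clones, and by very different amounts. It was counted at 29.5, 27.6 and 28.6 CPM in the parental libraries, 2.79 CPM in R13 and 17.8 CPM in R1. Both clones lay below the parental range, R13 at 9.77% of the parental mean and R1 at 62.5%. The log2 difference was -1.48 ± 0.69 (SE), adjusted p = 0.563, and it was -3.36 with R13 as the only clone and -0.68 with R1 as the only clone. Ofd1, the centriolar protein mutated in the other clones, was at 42.8, 35.3 and 37.1 CPM in parental cells, 42.9 in R13 and 40.5 in R1, with overlapping groups. A gene-level count does not show whether the remaining Sufu transcripts are intact.

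Genes near Sufu were lower as well, mainly on 1 side of it. The 8 nearest protein-coding genes on each side were looked up in the RefSeq gene order of chromosome 19, and 14 of these 16 were tested. Both clones lay below all parental libraries for 9 of the 14 and above them for 1. Every gene tested on the Trim8 side of Sufu was among the 9, but on the other side only Actr1a and Tmem180 were. On that side Nfkb2, Fbxl15 and Cuedc2 had log2 ratios of -0.90, -0.74 and -1.08 in R13 but -0.07, -0.21 and -0.22 in R1. Psd had 0.68 in R13 and -0.47 in R1. The median log2 ratio of the 14 neighbours to the parental mean was -0.90 in R13 and -0.73 in R1. Sufu in R1, at -0.67, was thus no lower than its surroundings: 7 of the 14 neighbours had a lower ratio there. In R13, at -3.24, only As3mt had a lower one.

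Actr1a, an actin-related subunit of dynactin and the next gene to Sufu, stood at 182, 162 and 189 CPM in parental cells, 90.7 in R13 and 92.3 in R1. The clones differed little from each other and lay far below the parental range, by -0.96 ± 0.14 (log2 ± SE, adjusted p = 0.178). Sfxn2, a mitochondrial carrier, was at 25.3, 26.6 and 28.5 CPM against 13.1 and 12.5. Tmem180 was at 7.69, 7.89 and 8.33 CPM against 2.63 and 2.49, a difference of -1.64 ± 0.29 (adjusted p = 0.244). Trim8, a ubiquitin ligase on the far side of Sufu, was at 146, 141 and 168 CPM against 92.7 and 99.4. Wbp1l, 2010012O05Rik, Cnnm2 and Arl3, a small GTPase of the primary cilium, were likewise lower in both clones than in every parental library. Gbf1, a guanine nucleotide exchange factor of the Golgi, was the exception in the other direction, with 65.5, 71.2 and 65.1 CPM against 79.6 and 95.3.

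As3mt, the arsenic methyltransferase, had no count in either clone and 59, 103 and 109 counts in the parental libraries (1.86, 2.73 and 3.21 CPM). With a floor of 3 counts over both clones it was at least 41.9-fold lower there. The Ofd1-mutant clones share the parental controls, so their values are only set beside these. As3mt was nearly absent there too, with 2 and 0 counts in the libraries of R14, 0 in R16 and 11 in R25. Actr1a was at 79.0 and 91.1 CPM in the libraries of R14, 94.1 in R16 and 153.2 in R25, and Sfxn2 was at 12.3, 9.90, 13.97 and 28.2 CPM in the same order.

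**Figure D1:**
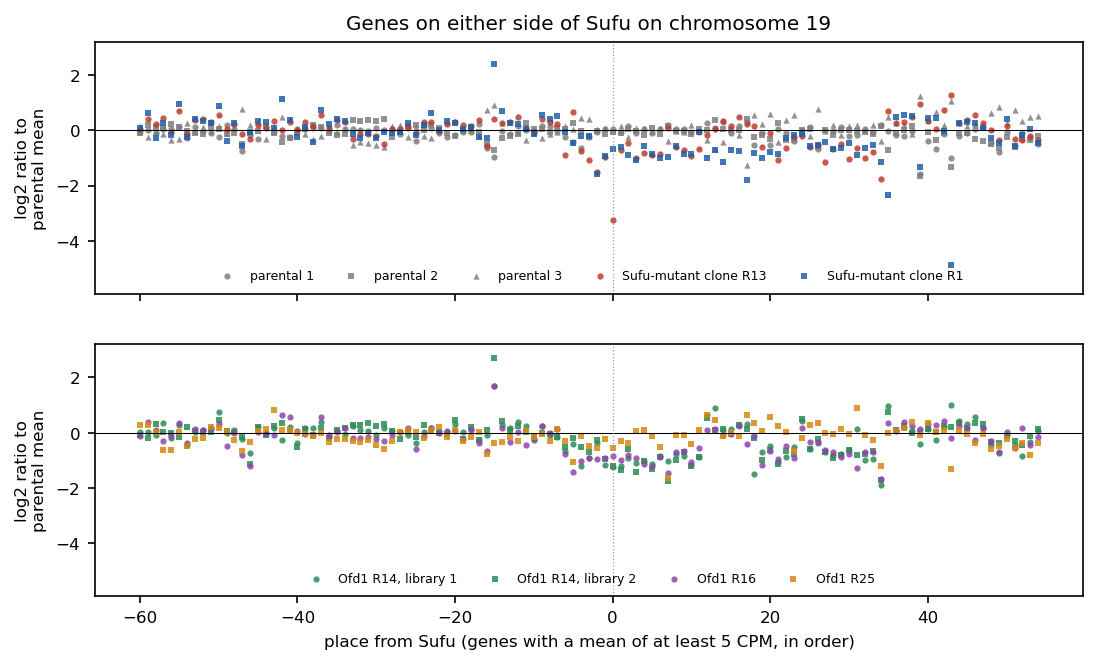
Log2 ratio of each gene to the mean of the 3 parental libraries, for up to 60 genes on each side of Sufu on chromosome 19 in gene order (only those averaging 5 CPM or more). The upper panel shows the 3 parental libraries and clones R13 and R1, the lower panel the Ofd1-mutant libraries; to the right of Sufu both Sufu-mutant clones, R14 and R16 lie mostly below 0 while R25 and the parental libraries lie around it, and Sufu itself is at -3.24 in R13.

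Among ligands and receptors of the Hedgehog pathway, Ptch1, Hhip and Boc lay above the parental range in both clones and Smo lay below it. Of 17 members listed 13 passed the filter on low counts, while Shh, Dhh, Disp1 and Gpc5 did not. Of the 13, edgeR called 0 and DESeq2 called 2 higher and 1 lower, against 2.41% of all genes called in either direction. Both clones lay above the parental range for 5 of the 13 (38.5%, against 12.8% of all genes) and below it for 1 (7.69%, against 13.8%). Their median log2 difference was 0.43, against 0.004 over all genes tested. By clone the median ratio to the parental mean was 0.65 in R13 and 0.38 in R1.

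Boc, a co-receptor of Hedgehog ligands, was counted at 326, 352 and 379.9 CPM in parental cells, 554 in R13 and 557 in R1. The groups were well apart and the clones were close to each other, with a log2 difference of 0.65 ± 0.13 (edgeR adjusted p = 0.294, DESeq2 adjusted p = 0.00186). Smo was at 296, 273 and 271 CPM in parental cells against 188 and 175, below the parental range in both clones, with a difference of -0.63 ± 0.13 (edgeR adjusted p = 0.316, DESeq2 adjusted p = 0.00365).

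Ptch1 itself was at 65.8, 86.8 and 79.8 CPM against 98.4 and 111 (0.43 ± 0.17). Hhip, a decoy receptor that binds Hedgehog ligands, was at 119.9, 86.1 and 137 CPM against 162 and 248. Both clones stood above the parental range for each of these genes, but the gap from the highest parental library to R13 was small. Gpc3, a glypican that competes for ligand, was also above the range in both clones at a low level, 3.69, 4.74 and 2.03 CPM against 8.49 and 6.47. Cdon, another co-receptor, was at 1.39, 1.48 and 3.80 CPM against 8.77 and 3.72, so R1 lay within the parental range. Gas1, a further co-receptor, was at 51.4, 63.5 and 100 CPM against 50.1 and 93.1 and overlapped. Scube2 and Scube3, which help release ligand, were near 1 CPM or below in several libraries and overlapped, as did Ihh, Lrp2 and Scube1, which averaged under 1 CPM.

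Among the Gli factors and their regulators, more members lay below the parental range than above it. Of 28 members tested, which leave out Gli3 for its low counts, edgeR called 0. DESeq2 called Gpr161 and Evc lower, against 2.41% of all genes called in either direction. Both clones lay above the parental range for 2 (7.14%, against 12.8% of all genes) and below it for 9 (32.1%, against 13.8%). The other 17 overlapped it. The median log2 difference was -0.12. Gli1, the transcriptional readout most often used for this pathway, was at 223, 219 and 242 CPM in parental cells, 231 in R13 and 239.8 in R1. These groups overlapped, and the difference was 0.04 ± 0.13 (adjusted p = 0.931). Gli2, the main activator, was at 331, 334 and 250.2 CPM against 239 and 188, below all parental libraries but close to parental 3.

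Gpr161, a ciliary receptor that restrains the pathway through protein kinase A, was at 19.4, 20.3 and 19.9 CPM in parental cells against 9.13 and 11.2, a difference of -0.96 ± 0.20 (edgeR adjusted p = 0.316, DESeq2 adjusted p = 0.0015). Gpr161 and Gli2 lie in a long stretch of chromosome 1 in which most genes were lower in both clones, described further on. Evc, which carries the signal from Smo at the base of the cilium, was at 47.5, 59.7 and 48.9 CPM against 30.1 and 30.4 (-0.78 ± 0.17), and its partner Evc2 at 49.3, 51.9 and 44.5 against 37.3 and 43.6. The kinesin Kif7, at 33.1, 34.9 and 31.1 CPM against 25.1 and 27.7, and Tulp3, which carries receptors into the cilium, were below the range in both clones by a smaller margin. The kinase genes Prkaca and Gsk3a were also just below it. Prkacb, Prkar1a, Gsk3b, Csnk1a1, Csnk1d and Csnk1e, which phosphorylate Gli proteins or regulate the kinases that do, overlapped the parental range, as did the ubiquitin ligase components Btrc, Fbxw11, Cul3 and Itch. Adrbk1 and Ulk3 were the 2 members above it in both clones, and Stk36, Dyrk2, Numb, Rab23 and Arrb2 overlapped.

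Most Hedgehog target genes overlapped the parental range, as did most genes tested. The list of 21 tested shares members with the lists above, Ptch1 and Hhip among them. Of the 21, 15 overlapped the range, beside 10166 of all 13854 genes. For this list edgeR called 0 and DESeq2 called 1, against 2.41% of all genes called in either direction. Both clones lay above the range for 5 (23.8%, against 12.8% of all genes) and below it for 1 (4.76%, against 13.8%). The 5 include Ptch1 and Hhip. The median of the list was 0.21 (0.07 without R13, 0.15 without R1). Ccnd1, the D-type cyclin of these cells, was at 841, 868 and 720.3 CPM against 888 and 707, and Mycn at 49.4, 58.6 and 61.6 against 56.5 and 34.9. Neither separated the groups. Ccnd2, Bcl2, Cdk6, Bmi1, Fyn, Nr2f2, Rasl11b, Jag2 and Bcor overlapped too. Prdm1, a transcriptional repressor, was above the range at a low level, 0.978, 1.72 and 3.18 CPM against 5.50 and 6.85, and Fst, an activin antagonist, at 3.03, 2.83 and 1.03 against 6.71 and 3.17. Pax6 was the member below it, with 134, 122 and 109.7 CPM against 73.4 and 103. The clones disagreed for the others: Igf2, a growth factor, was at 11.9, 17.1 and 20.96 CPM against 53.4 and 13.2, Sfrp1, a secreted Wnt antagonist, at 359, 307 and 569.8 against 739 and 253, and Atoh1, the granule progenitor factor, at 543, 469 and 398 against 461 and 248.

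**Figure D2:**
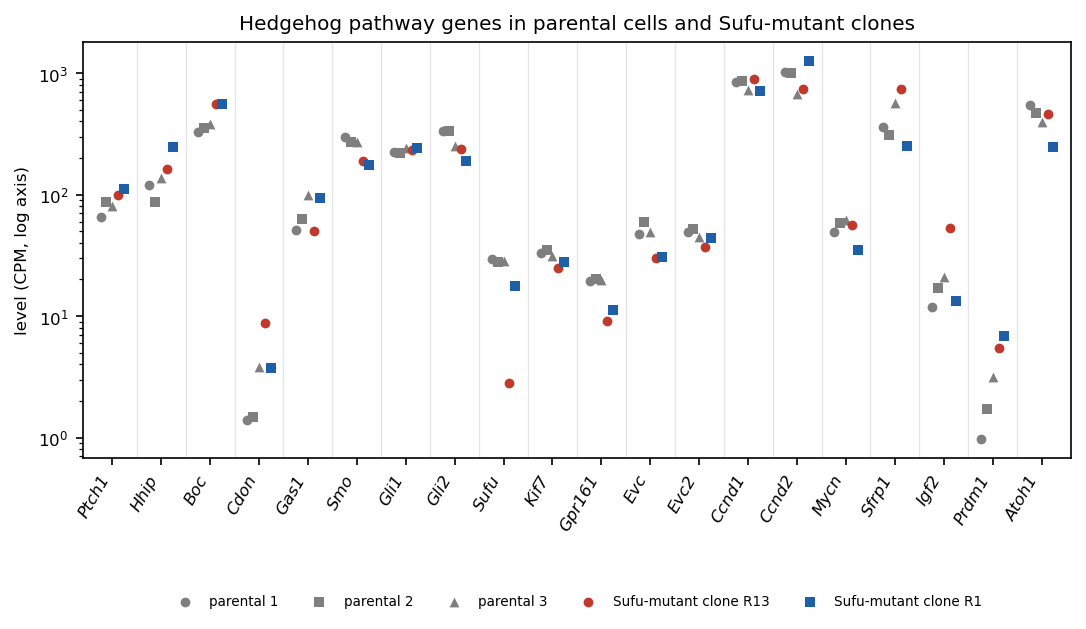
Level in CPM (log axis) of 20 Hedgehog pathway genes in each library: grey symbols are the 3 parental libraries, red is clone R13 and blue is clone R1. Boc is higher and Smo lower in both clones, Gli1 does not separate, and Sufu is much lower in R13 than in R1.

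Genes that both clones shared were counted as those at least 2-fold from the parental mean in each clone, outside the parental range and with a mean of at least 5 CPM. There were 71 such genes higher in both clones, 0.653% of 10879, and 65 lower, 0.597%. Without parental 3 the counts were 154 and 111, and with parental 3 as the only control they were 88 and 137.

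Among the higher genes, Hpca, a neuronal calcium sensor, was at 70.9, 80.1 and 212 CPM in parental cells, 923 in R13 and 805 in R1, a difference of 2.84 ± 0.48 (edgeR adjusted p = 0.235, and 3.52 without parental 3, which stood apart from parental 1 and 2 toward the clones). Kcnk3, a background potassium channel, was at 3.47, 2.12 and 4.33 CPM against 19.6 and 24.98. For these genes both clones were well clear of every parental library. The amino acid transporter Slc7a7 (1.48, 1.35 and 2.86 CPM against 12.3 and 16.2) and the retinol-binding protein receptor Stra6 (1.14, 0.926 and 1.68 against 7.72 and 13.8) showed the same separation.

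Other large differences rested mainly on R13. Ptpru, a receptor tyrosine phosphatase, was at 1.17, 1.11 and 4.21 CPM in parental cells, 70.3 in R13 and 12.3 in R1. Fhl1, a LIM-domain protein, was at 1.58, 1.03 and 0.5004 CPM against 25.1 and 2.24, and its log2 difference was 1.10 without R13 against 3.72 with it. Faim2, an inhibitor of Fas signalling, Rimklb, a peptide synthase, and Fbln7, a fibulin, had the same order, R13 above R1 above the parental libraries. Ptgir, the prostacyclin receptor, went the other way, with 25.2 CPM in R1 and 0.687 in R13, barely above the 0.677 of parental 3.

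Among the lower genes, Igfbp5, a secreted binding protein of insulin-like growth factors, was nearest to the threshold of the test, tied with 2210016F16Rik. Igfbp5 was at 96.0, 116.6 and 91.8 CPM in parental cells, 12.7 in R13 and 8.88 in R1. The log2 difference was -3.23 ± 0.24 (edgeR adjusted p = 0.0522, DESeq2 adjusted p = 5.84e-34), a parental mean 9.39 times that of the clones. Pappa2, a protease that cleaves this binding protein, was at 5.42, 9.08 and 33.6 CPM against 3.27 and 1.44. Diras2, a small GTPase of the Ras superfamily, was at 32.5, 37.5 and 32.3 CPM against 7.52 and 7.78, -2.16 ± 0.19 (edgeR adjusted p = 0.0898). With no filter on low counts the same edgeR test called 3 genes, Igfbp5, Diras2 and 2210016F16Rik.

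Rgs8, a regulator of G-protein signalling, was at 33.8, 35.6 and 22.3 CPM against 1.21 and 4.06. Kcnk2, a background potassium channel, was at 12.4, 11.3 and 17.5 CPM against 2.22 and 1.94, so it and its relative Kcnk3 differed from parental cells in opposite directions. Palmd, Neil3, a DNA glycosylase, and Grhl3, a transcription factor of epithelia, were also low in both clones. Fn1, fibronectin, was at 31.4, 33.5 and 10.5 CPM against 6.83 and 1.90, and Itgb5, an integrin subunit, at 20.8, 31.8 and 41.8 against 9.98 and 4.78. Mlc1, a membrane protein of astrocytes, was at 20.1, 19.4 and 38.9 CPM against 8.08 and 2.33. Dmrta1 was at 15.1 and 15.9 CPM in parental 1 and 2 but 1.18 in parental 3, against 0.525 and 0.380.

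**Figure D3:**
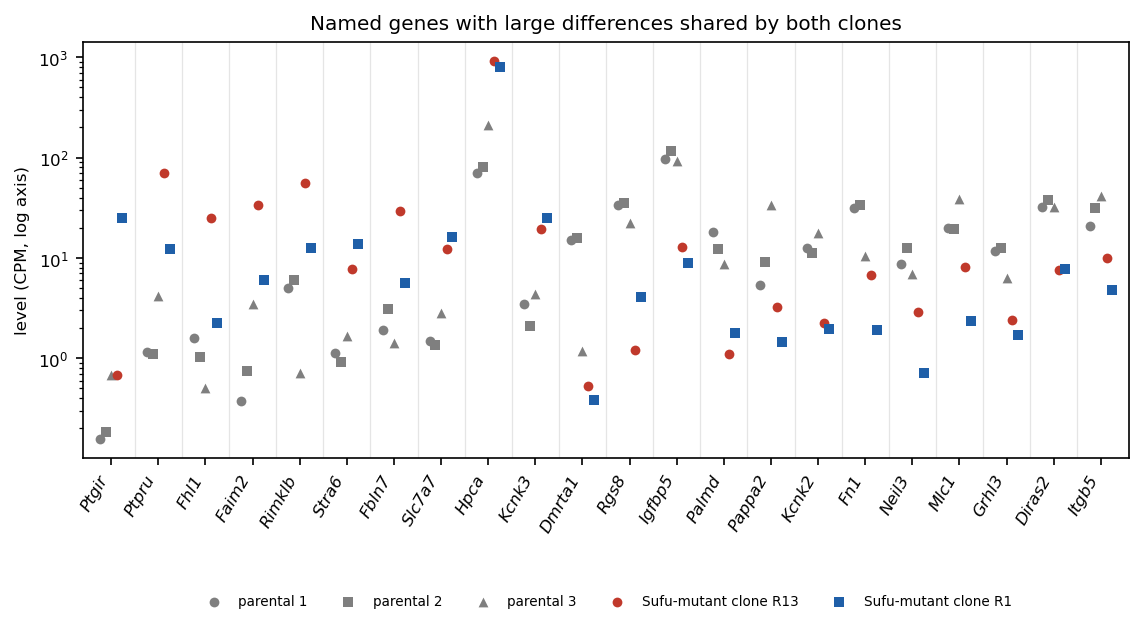
Level in CPM (log axis) of named genes with large higher and lower log2 differences, from those 2-fold apart in both clones at an unadjusted p under 0.05. Grey symbols are the 3 parental libraries, red is R13 and blue is R1; Hpca, Igfbp5, Kcnk2 and Diras2 show close clones, while Ptpru, Fhl1 and Ptgir differ widely between R13 and R1.

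A few genes were nearly absent from both clones. With at most 3 counts over both clones and at least 1 CPM in every parental library there were 6, among them As3mt, Gsc and 2210016F16Rik, the last 2 named after their values were seen. 2210016F16Rik had 224, 298 and 340 counts in the parental libraries against 2 and 1, and Gsc, the goosecoid homeobox factor, had 50, 75 and 47 against 1 and 0. In the Ofd1-mutant libraries 2210016F16Rik was at 0.062 and 0 CPM in R14, 1.175 in R16 and 5.09 in R25. Gsc was at 0.093, 0, 0.392 and 2.81 CPM in the same order. No gene met the reverse condition, absent from parental cells and present in both clones.

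The shift near Sufu was 1 of several stretches in which neighbouring genes differed together. Genes were placed by RefSeq order, and a running median of the log2 ratio to the parental mean was taken over 31 genes. A stretch was called where that median reached 0.4 in size over a span of at least 20 genes, with places up to 15 genes apart joined, so a span can hold places short of 0.4. This rule was set after the data were seen, and the stretches are described with no test. There were 16 stretches with 1318 genes, 12.2% of the 10819 genes placed. They were 5 in R13 alone (3 higher, 2 lower), 8 in R1 alone (6 higher, 2 lower) and 3 found in both clones. Against the mean of the other parental libraries, the running median of parental 3 was past 0.4 at 3.70% of places, compared with 5.52% for R13 and 8.96% for R1, and at most 0.0647% for parental 1 and 2. DNA copy number was not measured.

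On chromosome 1, 214 genes from Serpinb8 to Cadm3 had a median log2 ratio of -0.60 in R13 and -0.55 in R1. Both clones lay below the parental range for 121 of them. The parental libraries had medians of 0.08, 0.09 and -0.22 there, and against parental 3 alone the medians of the clones were -0.39 and -0.34. The Ofd1-mutant libraries had -0.16 and -0.15 in R14, -0.17 in R16 and 0.31 in R25. This stretch held 14 of the 65 genes 2-fold lower in both clones. Among them were Glul, the glutamine synthetase of astrocytes (1205, 1119 and 303 CPM against 296 and 252), En1, a homeobox factor of the midbrain and cerebellum (16.8, 16.9 and 8.24 against 5.62 and 6.34), Soat1, which esterifies cholesterol, Rgs8 and Pappa2. For Glul parental 3 was nearly as low as the clones.

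The stretch on chromosome 19 that holds Sufu ran over 47 genes from Psd to Trub1. Its medians were -0.61 in R13 and -0.68 in R1, with parental libraries at -0.05, -0.01 and 0.07, and -0.69, -0.67 and -0.70 in the libraries of R14 and R16 against -0.05 in R25. Psd at its edge was itself not lower in R13. From Neurl1a to Sorcs3 R13 was at -0.16 to 0.48 while R1 was at -1.78 to -0.70. Toward Trub1, Dclre1a, Nhlrc2, A630007B06Rik and Fam160b1 were above the parental mean in both clones. The upper quartile of the stretch was 0.12 in R13 and -0.44 in R1. Tcf7l2, a transcription factor of the Wnt pathway inside it, was at 16.1, 15.6 and 10.7 CPM against 3.96 and 6.30. The third shared stretch, on chromosome 18, covers the clustered protocadherins. Those genes overlap and share exons, so their counts are uncertain, and the median over the merged stretch was 0.43 in R13 but close to 0 in R1.

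Other stretches were found in 1 Sufu-mutant clone only. In R13, 64 genes on chromosome 5 from Tnrc18 to Rfc3 had a median ratio 2.3 times the parental level (log2 1.20), and 63 of them lay above all parental libraries. The same genes had medians of 0.63 and 0.51 in R14, 0.50 in R16, -0.05 in R25 and 0.08 in R1. R13 also had 149 genes on chromosome 14 from Shisa2 to Nalcn at -0.80, of which 134 lay below the parental range. Another 28 genes on chromosome 16 from Zfp263 to Tmem186 were at 0.79 in R13. The latter had medians of 0.80 and 0.79 in R14, 0.83 in R16, -0.12 in R25 and 0.06 in R1. In R1, 167 genes on chromosome 8 from Insr to Palld were at -0.79, with 148 below the range, while R13 was at -0.07 and the Ofd1-mutant clone R25 at -0.82. R1 was higher over 140 genes on chromosome 9 from Scaper to Lysmd2 (0.69) and 127 on chromosome 12 from Abcd4 to Btbd6 (0.59), where R13 was at -0.04 and -0.06.

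These stretches, with 12.2% of the genes placed, held 22 of the 65 genes 2-fold lower in both clones and 10 of the 71 higher. They also held 65 of the 182 genes that DESeq2 called lower, 49 of them in shared stretches, and 14 of the 144 it called higher. The stretches were picked from the same log2 ratios, so these counts are not a test. Boc, Smo, Evc, Igfbp5, Diras2 and Hpca lay outside all of the stretches. Stra6 and Nrcam lie in stretches higher in R1 alone, and Neil3 and Sfrp1 in the chromosome 8 stretch lower in R1.

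**Figure D4:**
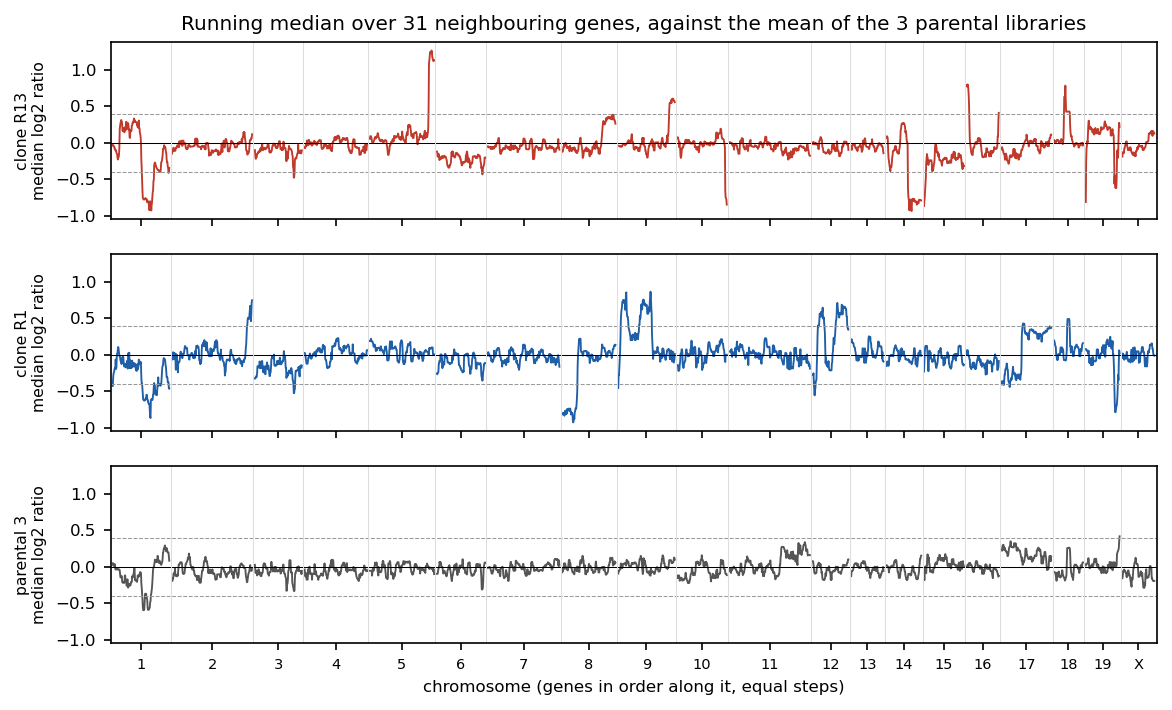
Running median over 31 neighbouring genes of the log2 ratio to the mean of the 3 parental libraries, along each chromosome in gene order, for clone R13 (top), clone R1 (middle) and parental 3 (bottom, measured against a mean that includes it). Dashed lines mark 0.4 and -0.4; both clones lie low on chromosome 1 and near the end of chromosome 19, R13 alone lies above 1 on chromosome 5 and below -0.4 on chromosome 14, and R1 alone lies low on chromosome 8.

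Of 32 transcripts tested that report signalling through ERK, 21 overlapped the parental range. Both clones lay above the parental range for 10 (31.2%, against 12.8% of all genes) and below it for 1 (3.12%, against 13.8%). Of the 32, edgeR called 0 and DESeq2 called 4 higher, against 2.41% of all genes called in either direction. The median was 0.33, and it was 0.20 without R1 and 0.17 against parental 3 alone. Egr1, an immediate early transcription factor, was at 16.8, 14.4 and 11.98 CPM in parental cells, 55.0 in R13 and 55.6 in R1, with a difference of 1.94 ± 0.19 (edgeR adjusted p = 0.137). Spry4, a feedback inhibitor, was at 13.6, 17.6 and 19.5 CPM against 47.1 and 66.8, and Dusp6, the phosphatase of ERK, at 44.2, 43.2 and 65.5 against 113 and 129. In each the clones lay well above all parental libraries. Egr2 was lower in abundance, with 1.23, 1.43 and 1.62 CPM against 5.98 and 6.17. Receptor tyrosine kinases and their ligands had 8 of 34 above the range (23.5%, against 12.8% of all genes) and 3 below (8.82%, against 13.8%), with a median of 0.36 that was -0.03 without R13. They included Tyro3 and Fgf9 above and Ntrk2 below.

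Of 27 p53 target genes, 7 were above the range in both clones (25.9%, against 12.8% of all genes) and 2 below (7.41%, against 13.8%). DESeq2 called 3 higher, against 2.41% of all genes called in either direction. The median was 0.10, and it was 0.02 without R13 and 0.03 without R1. Gadd45a, a growth arrest gene, was at 11.8, 10.9 and 10.7 CPM against 35.0 and 104.5. Eda2r, a receptor of the TNF family, was at 34.3, 43.9 and 54.8 CPM against 126.5 and 140.0, and the cell cycle inhibitor Cdkn1a at 8.92, 8.63 and 9.54 against 14.1 and 31.7. For Gadd45a and Cdkn1a R1 was the higher clone.

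Notch and Wnt genes were split. Of 22 Notch genes 5 were above the range (22.7%) and 2 below (9.09%), and of 28 Wnt genes 6 were above and 6 below (21.4% each), against 12.8% above and 13.8% below of all genes. The Notch ligands Dner (47.9, 47.0 and 60.99 CPM against 256 and 136) and Dll4 (0.599, 0.291 and 1.21 against 5.21 and 8.62) were higher, while Dll1, another ligand, and Nrarp, a target and feedback inhibitor, were lower in both clones. Wnt7b, a ligand, was at 0.820, 0.318 and 0.677 CPM against 6.47 and 3.76, and Wnt5a, another, at 62.4, 60.7 and 32.3 against 25.6 and 18.1. In the insulin-like growth factor axis, Igfbp2 was at 55.9, 75.8 and 50.9 CPM against 117 and 132, opposite in direction to Igfbp5.

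Markers of the granule lineage were detected in all 5 libraries, and 23 of the 26 listed were tested. The group had 1 member above the parental range and 3 below, a median of -0.26, and a median of -0.32 in parental 3 relative to the parental mean. Against parental 3 alone the median of the clones was 0.0073. Barhl1, a homeobox factor of these cells, was at 476, 554 and 376 CPM against 269 and 236. Neurod1, a differentiation factor, was above the range with 15.4, 16.1 and 13.5 CPM against 29.8 and 20.2. Among 46 genes of neuronal differentiation 4 were above and 4 below (8.7% each, against 12.8% and 13.8% of all genes). The clones differed, with medians of 0.24 in R13 and -0.48 in R1. Of the members above the range, Map2, a dendritic microtubule protein, was at 137, 143 and 79.2 CPM against 339 and 217. The adhesion molecule Nrcam, also above it, was at 25.4, 26.4 and 30 against 48.6 and 65.9. Of 20 neural stem cell genes 18 overlapped the parental range, 1 was above it and 1 below (5% each, against 12.8% and 13.8% of all genes). The latter was Sox2, a stem cell factor, at 31.8, 34.4 and 23.5 CPM against 10.8 and 12.9. Dlx2, a homeobox factor of forebrain interneurons, was at 4.92, 5.35 and 7.68 against 33.7 and 13.1.

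Markers of microglia and endothelium were low, while astrocyte and oligodendrocyte lineage markers were detected. Of 13 astrocyte markers tested, 2 were above the range (15.4%, against 12.8% of all genes) and 4 below (30.8%, against 13.8%). Those below included Gfap (13.97, 15.9 and 35.4 CPM against 8.93 and 4.82), Slc1a3 and Glul. The clones differed, with median ratios of 0.26 in R13 and -0.70 in R1. The summed level of these markers was 2065 and 2169 CPM in parental 1 and 2, 937 in parental 3, 1106 in R13 and 969.7 in R1. Parental 3 was thus as low as the clones. Glul lies in the chromosome 1 stretch. It alone gave 1205, 1119 and 303 CPM in parental 1, 2 and 3, 296 in R13 and 252 in R1. Of 19 oligodendrocyte lineage markers listed 10 were tested. Among the 10, edgeR called 0 and DESeq2 called 2 higher, against 2.41% of all genes called in either direction. Of these markers 4 were above the range (40%, against 12.8% of all genes) and 1 below (10%, against 13.8%). Their median was 0.44, but 0.06 against parental 3 alone, and they summed to 308.7 and 286.2 CPM in parental 1 and 2, 561.3 in parental 3, 420.1 in R13 and 625.0 in R1. Olig2, a factor of this lineage and 1 of the 2 called, was at a low level, 0.505, 0.450 and 0.530 CPM against 2.39 and 3.64. Only 1 of 16 microglial and 5 of 14 endothelial markers passed the filter on low counts, with summed levels of 0.971 to 1.94 CPM and 3.92 to 12.6 CPM, and 5 and 3 of those listed had no count in any of the 5 libraries. Of 16 fibroblast and pericyte markers 8 were tested, with 1 above and 1 below (12.5% each, near the 12.8% and 13.8% of all genes). These markers summed to 29.2 to 46.7 CPM in parental cells, 53.8 in R13 and 14.2 in R1. The part of these cell types in the results was not tested.

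S phase genes were slightly lower in the clones and in parental 3. Of 50 S phase genes 0 were above the parental range and 13 below (26% against 13.8% of all genes), with medians of -0.21 in R13, -0.32 in R1 and -0.16 in parental 3. Against parental 3 alone the median of that list was -0.05, compared with -0.21 against all 3. Ccne2, an S phase cyclin, was at 71.1, 68.3 and 66.2 CPM against 48.0 and 41.3, and Pcna, the replication clamp, at 398, 356 and 326 against 284 and 279. Of 54 G2 and M phase genes 2 were above (3.7%, against 12.8% of all genes) and 9 below (16.7%, near the 13.8% of all genes). The medians of the 54 were -0.07 in R13, -0.09 in R1 and -0.23 in parental 3. Against parental 3 alone the median of that list was 0.22 instead of -0.08. Of 26 cholesterol synthesis genes 0 were above and 6 below (23.1%, against 13.8% of all genes), with a median of -0.24 that was 0.01 against parental 3 alone. Of 68 cilium and centriole genes 3 were above (4.41%, against 12.8% of all genes) and 16 below (23.5%, against 13.8%), among them Ift27, Sclt1 and Bbs7. The medians of the 68 were -0.04 in R13, -0.23 in R1 and -0.17 in parental 3. Against parental 3 alone the median of that list was 0.05 instead of -0.11. Of the 68, 8 lie in the stretches described above.

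R13 and R1 differed from each other about as much as either differed from parental cells. R13 alone was at least 4-fold from the parental mean for 26 genes (20 higher, 6 lower) while R1 stayed near the parental range, and R1 alone for 67 (20 higher, 47 lower). In 37 genes both clones were at least 2-fold from the parental mean in opposite directions. Olig3, a transcription factor of the rhombic lip, was at 107, 108 and 45.2 CPM in parental cells, 44.3 in R1 and 1.74 in R13. Thy1, a surface glycoprotein of neurons, was at 1.99, 1.96 and 1.09 CPM against 26.2 in R13 and 1.01 in R1, and Ptprn, a protein of secretory granules, was at 32.3 in R13 and 1.10 in R1. Eva1a had 78.5 CPM in R13 and 1.52 in R1. Gja1, a gap junction protein, Slfn3 and Slc7a2, a cationic amino acid transporter that lies in the chromosome 8 stretch, were instead far lower in R1 and within the parental range in R13.

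R1 carried higher levels of genes of the integrated stress response. Sesn2 was at 29.8, 14.5 and 27.96 CPM in parental cells, 21.4 in R13 and 189.9 in R1, and Chac1, which degrades glutathione, at 16.7, 3.92 and 14.4 against 8.57 and 112. The 34 genes of this list had a median ratio of 0.93 in R1 and -0.25 in R13, and the parental libraries spanned -0.54 to 0.48. The Ofd1-mutant libraries had -0.60 and 0.28 in R14, 0.62 in R16 and -0.21 in R25, so a raised median was not particular to R1. Of the 34, 4 were above the parental range in both clones (11.8%, near the 12.8% of all genes) and 1 below (2.94%, against 13.8%). Cnn1, an actin-binding protein, was another R1 gene with 38.1 CPM against 1.37 in R13, but parental 3 had 12.6.

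**Figure D5:**
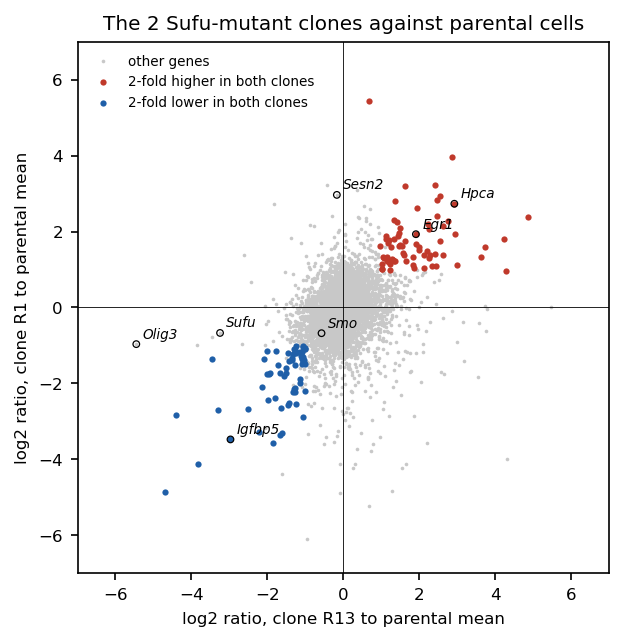
Log2 ratio to the parental mean in R13 (horizontal) and R1 (vertical) for the 10879 genes that averaged 5 CPM or more. Red points are the 71 genes 2-fold higher and blue points the 65 genes 2-fold lower in both clones; Olig3 and Sesn2 lie near 1 axis, with mainly 1 clone away from 0, and Sufu is lower mainly in R13.

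A direct test of the 2 Sufu-mutant clones against 3 Ofd1-mutant clones, with the libraries of R14 summed, called 0 of 13924 genes by edgeR (percent called 0), with 979 at an unadjusted p under 0.05. DESeq2 called 188. Sufu had a log2 difference of -0.60 ± 0.71 (SE) between the clone classes, and it was at 11.99 to 19.4 CPM in the Ofd1-mutant libraries. Boc was higher by 0.57 (adjusted p = 0.615), so it was not shown to differ between the clone classes. Smo differed by -0.17 (adjusted p = 0.856) and Gli1 by 0.87 (adjusted p = 0.723). The differences of Igfbp5 (-3.62) and Diras2 (-2.21) were about as large against Ofd1-mutant clones as against parental cells, with adjusted p of 0.657 and 0.685, while that of Rgs8 was -0.42.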

How the data were processed

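Libraries were made with a stranded mRNA kit and read as single 75-base reads on 1 NextSeq500 run, per the labels' protocols. The authors' deposited table holds raw counts per gene symbol, and the submitters' processing notes name STAR, DESeq2 and mm9; no counting tool or annotation is given in the sources used here. A row that names no gene held 0.0131% to 0.0193% of counts and was left out. The 5 libraries compared were fitted with edgeR 4.0.16 in R 4.3.3 (filterByExpr, TMM factors, robust quasi-likelihood test, Benjamini-Hochberg adjustment over all genes kept); DESeq2 1.42.0 was the alternative. Log2 ratios of single libraries used a pseudocount of 0.25 CPM. The scripts were tested on simulated data. Chromosome and gene order came from RefSeq GRCm38.p6 by symbol, which placed 22432 of 22619 genes (99.2%); this is not the build of the counts, so no coordinates are given. The members and the 34 gene lists (1143 of 1158 entries in the table) were chosen with earlier results of these data known.

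Named genes were Sufu and Ofd1, every detected Hedgehog gene (mean of at least 1 CPM), the 12 largest rises and 12 largest falls shared by both clones at an unadjusted p under 0.05 (passing over clone-type and predicted symbols), up to 4 detected members with the lowest p of each other list, 6 genes per direction that differ between the clones, and the 8 nearest genes on each side of Sufu. En1, Soat1, 2210016F16Rik and Gsc were named after their values were seen. A few of the genes picked in this way are not reported here. Counts of genes, list medians and 96 named genes were recomputed with other size factors, no filter on low counts, all 11 libraries in 1 fit, parental 3 as the only control and each library left out, where the setting applies; stretches were recomputed only with other size factors, parental 3 as the only control and each parental library left out. Depth was 24308451 to 38241595 counts per library, so 1 count is far below the 5 CPM used for counts of genes.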

Additional observations from a re-analysis of the deposited data

How the results depend on the processing

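No paired analysis was possible because the clones carry clone names rather than replicate numbers shared with the parental libraries. The count of 0 genes called by edgeR against parental cells was the same with DESeq2's size factors, with all 11 libraries in 1 fit and with parental 3 as the only control. It was 3 with no filter on low counts, 326 by DESeq2, and 0 to 11 when each library was left out, the 11 without parental 3 (Hpca, Epha8, Dmrta1 and Glul among them). Against Ofd1-mutant clones the count of 0 was 188 by DESeq2, 2 with no filter (Lrrfip1 and Trpm3) and 1 with the R14 libraries apart (Trpm3). Leaving out a library gave 59 to 308 genes 2-fold higher and 59 to 413 lower, the highest where 1 clone was left. The lower genes numbered 137 against parental 3 alone and 43 outside the shifted stretches, a setting added after seeing the data, as were windows of 21 and 51 genes, which gave 18 and 15 stretches counted per clone against 19. The cause was not tested. Of 960 alternative values for 96 named genes, 881 kept direction and side of the threshold, 61 became called and 18 reversed.

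Against parental 3 alone the direction reversed for Gli1 (-0.045), Ccnd1 (0.14) and Sfrp1 (-0.20), and Gas1, near 0, was 0.0013 by DESeq2 and 0.0052 with its size factors. With each library left out the log2 differences spanned -0.52 to 0.37 for Gas1, -0.20 to 0.13 for Ccnd1, -0.71 to 0.84 for Sfrp1 and -0.34 to 1.68 for Igf2. For genes that differ between the clones they spanned -0.73 to 3.96 for Thy1, -0.00052 to 7.63 for Eva1a, -1.62 to 3.26 for Ptprn, -2.02 to 3.28 for Cnn1, -0.45 to 3.26 for Chac1 and -0.17 to 2.97 for Sesn2. Of the list medians, 319 values moved by less than the spread between libraries and 55 by more. The effect of depth was not tested; genes under 5 CPM were left out of the counts of 2-fold genes and of the stretches.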
